A study of Mus musculus with 18 samples.

Results

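The REV-ERB receptors Nr1d1 and Nr1d2 and the ROR receptor Rora are 3 of the 33977 genes in a count table of mouse colon RNA. They were matched by gene symbol, and each gave 1 row. The set was selected on its readout: clock genes, Nr1d1 among them, had already been seen lower with tea in 1 of the 2 sets of libraries, called set C below. The values of these receptors in tea against saline and in tea against capsule of set C are therefore a description, with no test, and so are differences between the sets that contain them. All other comparisons were tested on the whole table. Capsule against saline of set C shares its libraries with those 2 described comparisons. Its tests of these receptors are therefore not independent of the choice.

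The RNA came from colon of ICR mice, an outbred strain, in 18 libraries. Mice of the NC groups had received saline for 44 days. The FFZR groups were gavaged over the same 44 days with a capsule of compound Suanzaoren, or jujube kernel. The JHHCG groups were gavaged as long with Jinhua Hecha, which is a green tea that has been fermented. A further letter in the titles, C or X, is not explained in the labels, and it divides each treatment into 2 groups of 3 libraries. The 6 groups NCC, FFZRC, JHHCGC, NCX, FFZRX and JHHCGX are written here as saline, capsule and tea of set C and of set X. By sex-linked transcripts, given below, set C read as female and set X as male, while the titles state no sex. The design text names 3 mice per treatment for 6 libraries per treatment, and libraries are not tied to animals. The p-values thus measure only the spread between libraries, which may not be that between animals. Counts of libraries of the same group differed by a chi-square of 50.7 to 1080 per degree of freedom, more than counting error alone gives. By its title, the study concerned how the tea acts on sleep. No source used here gives the time of day at which colon was taken.

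REV-ERB alpha (Nr1d1) and REV-ERB beta (Nr1d2) are nuclear receptors that bind haem and lack the helix through which other receptors recruit coactivators. They repress transcription through the NCoR and HDAC3 corepressor complex. ROR alpha (Rora) binds the same DNA elements, mostly as a single molecule, and activates transcription. On clock genes such as Arntl, which encodes BMAL1, the opposed receptors compete, while BMAL1 and CLOCK in turn drive the REV-ERB genes through E-boxes. Nr1d1, Nr1d2 and the output factors Dbp and Tef are known to cycle strongly over the day in peripheral tissues.

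In the build GRCm38, Nr1d1 (ENSMUSG00000020889) lies on the minus strand at chr11:98767932-98775333, and Nr1d2 (ENSMUSG00000021775) on the minus strand at chr14:18204054-18239127. Rora (ENSMUSG00000032238) lies on the plus strand at chr9:68653786-69388246 and spans 734461 bases. Promoters are shown because the receptors read and carry the elements that join them to the clock. Each window is from RefSeq (GRCm38.p6), 250 bases before to 50 after the gene start, on the gene's own strand. The Arntl window is printed as the textbook target of these receptors; it is 1 of 2 RefSeq windows of that gene, and the other held none of the motifs. Capitals mark matches to 5 motifs searched on both strands: the E-box CACGTG, its variant CACGTT, the ROR element AANTAGGTCA, its core AGGTCA, which lies within it, and the D-box TTANGTAA.
Nr1d1, chr11:98775328-98775627: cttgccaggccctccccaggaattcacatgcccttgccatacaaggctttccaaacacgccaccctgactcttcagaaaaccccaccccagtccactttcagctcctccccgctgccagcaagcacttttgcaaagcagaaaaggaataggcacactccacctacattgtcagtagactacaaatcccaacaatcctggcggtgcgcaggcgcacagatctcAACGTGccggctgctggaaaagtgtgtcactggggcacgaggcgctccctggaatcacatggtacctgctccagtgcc
Nr1d2, chr14:18239057-18239356: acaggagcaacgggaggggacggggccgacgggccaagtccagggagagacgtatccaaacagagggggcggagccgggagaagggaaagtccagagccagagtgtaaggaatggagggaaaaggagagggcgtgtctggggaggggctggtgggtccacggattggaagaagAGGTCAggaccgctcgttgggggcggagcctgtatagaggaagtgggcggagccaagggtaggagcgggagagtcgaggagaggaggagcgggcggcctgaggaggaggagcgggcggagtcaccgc
Rora, chr9:68653536-68653835: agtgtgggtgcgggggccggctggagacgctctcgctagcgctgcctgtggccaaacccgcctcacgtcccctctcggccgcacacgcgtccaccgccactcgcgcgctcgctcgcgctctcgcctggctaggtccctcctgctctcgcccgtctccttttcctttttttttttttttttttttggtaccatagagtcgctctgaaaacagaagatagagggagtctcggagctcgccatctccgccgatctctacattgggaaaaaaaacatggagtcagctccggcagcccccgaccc
Arntl, chr7:113207261-113207560: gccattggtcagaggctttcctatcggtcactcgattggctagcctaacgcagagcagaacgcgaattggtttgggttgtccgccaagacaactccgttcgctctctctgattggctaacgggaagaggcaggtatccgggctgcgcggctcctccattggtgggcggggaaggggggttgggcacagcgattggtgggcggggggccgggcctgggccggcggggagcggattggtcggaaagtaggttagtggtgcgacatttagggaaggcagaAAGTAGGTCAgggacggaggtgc
The Nr1d1 window held the E-box variant on its reverse strand at position -28 from the start, a motif present in 4.69% of 32851 mouse promoter windows of this length. The Nr1d2 window held the core AGGTCA at position -77, as did 16.3% of all windows. The Arntl window held the whole ROR element at position 28, which only 0.219% of windows did. None of the 5 motifs was found in the Rora window. The E-box CACGTG and the D-box, found in 7.15% and 2.32% of windows, matched none of these 4 sequences. Such matches describe letters in a window and not bound sites. GC content was 56.3% for Nr1d1, 65.7% for Nr1d2 and 60.3% for Rora, against a median of 52.7% over all windows.

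Depth was 59206980 to 76830278 counts per library, and the receptors were well covered, with 4454 to 21490 counts for Nr1d1, 1547 to 7801 for Nr1d2 and 203 to 1310 for Rora. Intestinal epithelial markers, among them Epcam and Vil1, summed to 7232 to 18149 CPM (counts per 1e6 counts of the library) in all libraries, as colon should show. The libraries were not alike in make-up. Mitochondrially encoded counts made up 5.26% to 23.8% of a library, and smooth muscle markers summed to 2995 to 32495 CPM. Col2a1 of cartilage and Sftpc of lung, neither a colon transcript, were both at 10 CPM or more in 5 libraries, Sftpc alone in 6, and neither in 7. In set C this division coincided with treatment, since all saline libraries carried both, all tea libraries Sftpc alone and all capsule libraries neither, so the 2 cannot be told apart there. The X-inactivation transcript Xist was at 199.9 to 536 CPM in set C and 0.787 to 9.89 CPM in set X. The Y-linked Eif2s3y was at 0.175 to 4.42 CPM in set C and 27.1 to 79.4 CPM in set X. These levels read as female tissue in set C and male tissue in set X. A difference between the sets is thus also one between the sexes. In bulk tissue, fewer cells of a type and less RNA per cell cannot be told apart.

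Per length, Nr1d1 was the most abundant of the 3 receptors. Its level was 21.8 to 100.9 FPKM (fragments per kilobase of gene length, scaled to library size) over the 18 libraries, with a mean of 60.2, above 96.7% of the 22380 genes tested jointly. Nr1d2 ran from 4.06 to 21.2 FPKM with a mean of 12.3, above 84.0% of genes. Rora was low, at 0.215 to 1.33 FPKM and a mean of 0.525, above 32.2% of genes. Rorb, the gene of ROR beta, a relative known from brain and retina, reached at most 0.0544 FPKM and was listed at 0 in some libraries. In this order the ranges of neighbours did not overlap from Nr1d1 to Nr1d2, nor from Nr1d2 to Rora.

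Spread over libraries was near the middle of all genes for each receptor. The SD of log2 CPM over all 18 libraries was 0.59 for Nr1d1, 0.76 for Nr1d2 and 0.66 for Rora, against a median of 0.65 over all genes. These were above the SDs of 46.2%, 57.3% and 50.8% of genes. Within groups the SDs were 0.50, 0.43 and 0.53, against a median of 0.63, so Nr1d2 was the member with the largest spread overall and the smallest within groups.

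**Figure D1:**
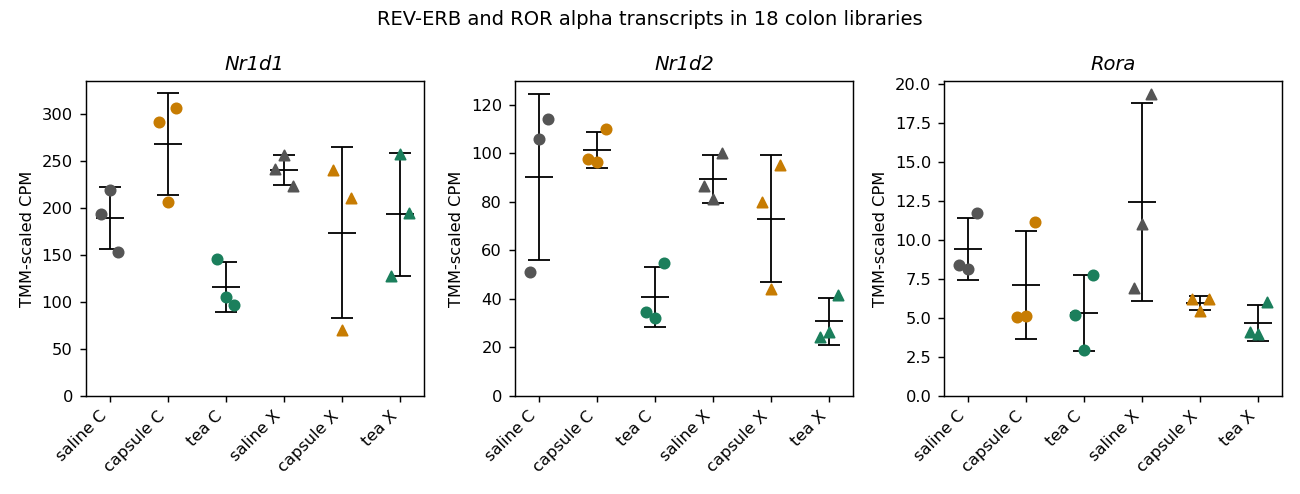
Levels of Nr1d1, Nr1d2 and Rora in TMM-scaled CPM (vertical axes) for the 3 libraries of each of 6 groups; bars give the mean ± SD, circles set C and triangles set X. Nr1d2 was at 24.1 to 54.8 CPM in the 6 tea libraries, a range that libraries NCC_2 (saline C) and FFZRX_238 (capsule X) also fell in.

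REV-ERB alpha had its lowest group mean with tea in set C, 116 ± 26.5 CPM (SD, n = 3), and its highest with capsule in set C, 267.7 ± 54.2 CPM (SD, n = 3). Levels from here on are CPM after TMM scaling unless stated otherwise. In saline of set C, libraries NCC_2, NCC_8 and NCC_17 had 194, 219 and 153 CPM of Nr1d1. The capsule libraries FFZRC_5, FFZRC_12 and FFZRC_24 had 291, 206 and 306 CPM, and the tea libraries JHHCGC_7, JHHCGC_19 and JHHCGC_48 had 146, 104 and 96.4 CPM. All tea libraries of set C thus lay under every saline and capsule library of that set on this scale, although the tea and saline ranges overlapped in FPKM. How many of all genes separate groups without overlap was not counted, here or for the genes below. In set X, saline libraries NCX_124, NCX_134 and NCX_147 had 241, 255.9 and 223 CPM of Nr1d1. Capsule libraries FFZRX_139, FFZRX_238 and FFZRX_268 had 240.4, 69.6 and 211 CPM, and tea libraries JHHCGX_129, JHHCGX_148 and JHHCGX_256 had 127, 257 and 194 CPM. Set X was thus high in saline and mixed in the treated groups, which overlapped saline and each other.

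In set C the described log2 fold changes of Nr1d1 were -0.68 for tea against saline and -1.21 for tea against capsule. Of all 20964 genes tested there, 0% passed an adjusted p of 0.05 for tea against saline and 0.0143% for tea against capsule (edgeR's quasi-likelihood test, Benjamini-Hochberg over all genes). A term for the Col2a1 and Sftpc division in a fit of all 18 libraries moved these folds to 0.09 and -0.40. As the division coincided with treatment in set C, that term was estimated from set X libraries alone, and the adjusted values do not separate the 2 in set C. The capsule against saline fold of Nr1d1 was 0.53 ± 0.25 (SE) in set C, with an edgeR adjusted p of 0.937, in a comparison that called 0.11% of genes. In set X, Nr1d1 gave -0.32 ± 0.43 for tea against saline (adjusted p = 0.744), -0.47 ± 0.43 for capsule against saline (adjusted p = 0.751) and 0.15 ± 0.42 for tea against capsule (adjusted p = 1). None of the 3 differences passed the test, and edgeR called 0% of 20889 genes in each of these comparisons. DESeq2 called 1678, 166 and 208 genes in them, and 3582, 2014 and 1235 had an unadjusted edgeR p under 0.05. For tea against saline of set C, DESeq2 called 167 genes and 668 had such a p. The 3 comparisons of a set share their libraries and are not independent.

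Nr1d1 and Thra, the thyroid hormone receptor alpha gene, are antisense neighbours and share 263 of the 3077 exonic bases of Nr1d1 (8.55%) in the GENCODE annotation, where Thra ends at base 98769006 of chromosome 11. The deposited table ends Thra at base 98765111, short of Nr1d1. No source used here says if counting was by strand, so a part of the Nr1d1 count may be Thra RNA. Thra was at 41.1 to 106 CPM. Its log2 folds for tea against saline, capsule against saline and tea against capsule were 0.22, 0.07 and 0.15 in set C and -0.05, -0.66 and 0.62 in set X. The folds of Nr1d1 had the opposite sign in both tea comparisons of set C and the same sign in the other 4. The part of Thra RNA in the Nr1d1 values was not tested. Rora shares 82 exonic bases, 0.627%, with the antisense gene Gm15511.

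REV-ERB beta had its lowest group mean with tea in both sets. In set C, Nr1d2 was at 51.1, 106 and 114 CPM in saline libraries NCC_2, NCC_8 and NCC_17. It was at 97.7, 96.2 and 110.0 CPM with capsule (libraries FFZRC_5, FFZRC_12 and FFZRC_24) and at 34.7, 32.2 and 54.8 CPM with tea (libraries JHHCGC_7, JHHCGC_19 and JHHCGC_48). Tea lay under capsule with no overlap, while saline library NCC_2 fell within the tea range in CPM but above it in FPKM. In set X, saline libraries NCX_124, NCX_134 and NCX_147 had 86.7, 81.0 and 100.2 CPM of Nr1d2. Capsule libraries FFZRX_139, FFZRX_238 and FFZRX_268 had 79.9, 44.1 and 95.2 CPM, and tea libraries JHHCGX_129, JHHCGX_148 and JHHCGX_256 had 24.1, 26.4 and 41.7 CPM. Every tea library of set X was below every saline and capsule library of that set, in CPM and in FPKM. The share of all genes that did so was not counted.

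The log2 fold of Nr1d2 for tea against saline in set X was -1.54 ± 0.31 (SE), from a mean of 89.3 ± 9.86 CPM (SD, n = 3) to 30.7 ± 9.59 CPM (SD, n = 3). The unadjusted p was 0.000879, and the edgeR adjusted p of 0.0801 did not pass the threshold. An unadjusted p under 0.05 was reached by 17.1% of genes in this comparison. The same fold passed with DESeq2 (adjusted p = 0.00102) and in an edgeR fit of all 18 libraries (adjusted p = 0.0312). Those settings called 1678 and 448 genes in this comparison. With each library of set X left out in turn, the edgeR adjusted p ran from 0.0522 to 0.314. The 2 saline and 2 tea libraries of set X that had neither Col2a1 nor Sftpc, compared with no test, gave -1.44.

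Tissue markers also differed between these groups. In tea against saline of set X, all 8 epithelial markers were higher, by a median of 0.71 in log2(CPM + 1), as were all 7 goblet cell markers (median 1.43) and all 7 lymphocyte markers (median 0.53), and none of them was at 0 in any library of these groups. Epithelial markers summed to 7232 to 14346 CPM in saline and 14240 to 18149 with tea, goblet cell markers to 175 to 19315 and 769 to 13585 CPM, and lymphocyte markers to 3.58 to 136 and 5.82 to 176 CPM. The same 3 lists were higher in every marker with capsule than in saline of set X, by medians of 0.67, 1.77 and 0.67. Over 18 libraries, Spearman's rho of Nr1d2 was -0.57 with the epithelial level, -0.34 with the lymphocyte level and 0.08 with smooth muscle, and Pearson's r after subtraction of group means was -0.11, -0.64 and 0.42. The part of tissue make-up in the Nr1d2 values was not tested.

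Against capsule in set X, Nr1d2 gave -1.25 ± 0.31 with tea. Its unadjusted p was 0.00311, a level under 0.05 that 5.91% of genes reached, and its edgeR adjusted p was 0.528. With capsule, the Nr1d2 folds against saline were 0.19 ± 0.32 in set C (adjusted p = 1) and -0.29 ± 0.31 in set X (adjusted p = 0.791), by edgeR. In set C the described folds of Nr1d2 with tea were -1.14 against saline and -1.32 against capsule.

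**Figure D2:**
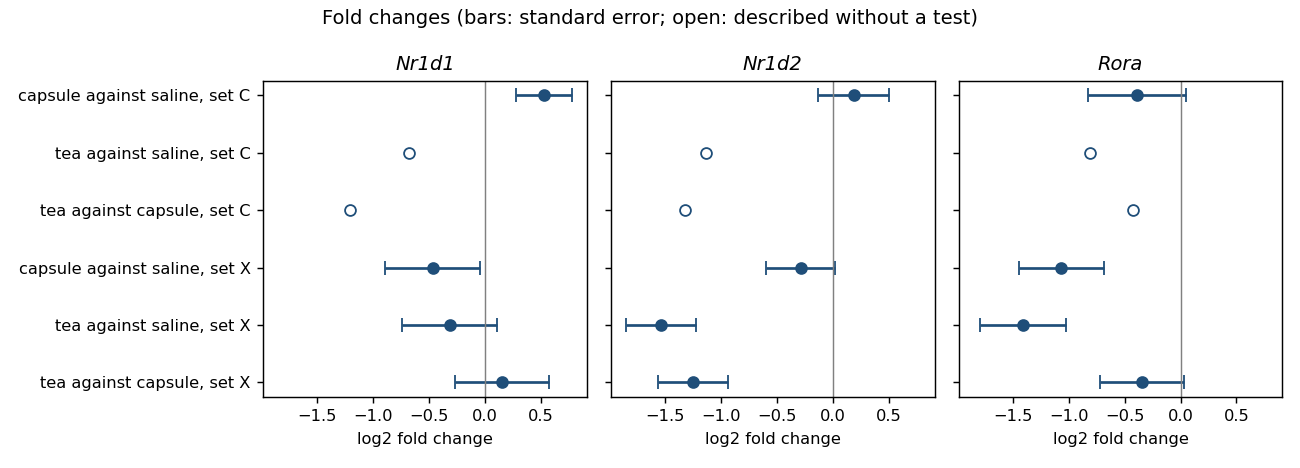
Log2 fold changes of Nr1d1, Nr1d2 and Rora in 6 comparisons (edgeR); filled points carry a standard error bar, and open points are the described comparisons. Nr1d2 lay between -1.14 and -1.54 in the 4 comparisons of tea with saline or capsule, while Nr1d1 was at -0.32 and 0.15 in those of set X.

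The REV-ERB paralogues separated in the tea group of set X. The ratio of Nr1d1 to Nr1d2 in FPKM was 9.27, 17.2 and 8.18 in tea libraries JHHCGX_129, JHHCGX_148 and JHHCGX_256, a mean of 11.5 ± 4.91 (SD, n = 3). In the other 15 libraries it was 2.36 to 7.38. Group means there were 4.22 ± 2.21 in saline C, 4.63 ± 0.78 in capsule C, 5.39 ± 2.16 in tea C, 4.79 ± 0.82 in saline X and 3.98 ± 1.26 in capsule X, each with n = 3. All 3 tea libraries of set X were thus above the other 15. This ratio was looked at after the levels had been seen and is given with no test. The highest value came from library JHHCGX_148, in which Nr1d1 was at 257 CPM and Nr1d2 at 26.4 CPM.

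**Figure D3:**
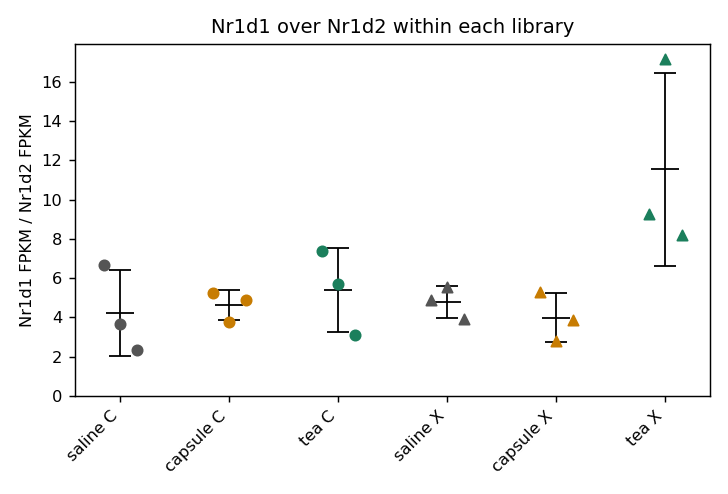
Ratio of Nr1d1 to Nr1d2 in FPKM (vertical axis) in each library of the 6 groups, with mean ± SD. The tea libraries of set X, at 8.18 to 17.2, lie above the other 15 libraries, which reach 7.38.

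ROR alpha had its highest group means in saline, 9.42 ± 1.99 CPM in set C and 12.4 ± 6.34 CPM in set X (SD, n = 3 each). In set C, saline libraries NCC_2, NCC_8 and NCC_17 had 8.39, 8.15 and 11.7 CPM of Rora. Capsule libraries FFZRC_5, FFZRC_12 and FFZRC_24 had 5.07, 5.09 and 11.1 CPM, and tea libraries JHHCGC_7, JHHCGC_19 and JHHCGC_48 had 5.20, 2.90 and 7.77 CPM. Tea lay under saline, and capsule overlapped both. In set X, saline libraries NCX_124, NCX_134 and NCX_147 had 6.89, 11.03 and 19.3 CPM of Rora. Capsule libraries FFZRX_139, FFZRX_238 and FFZRX_268 had 6.18, 5.41 and 6.21 CPM, and tea libraries JHHCGX_129, JHHCGX_148 and JHHCGX_256 had 4.06, 3.95 and 6.01 CPM. Capsule and tea of set X both lay under saline and overlapped each other. In FPKM, which carries no TMM scaling, the 6 saline libraries had 0.582 to 1.33 and the other 12 at most 0.543, with no overlap. The share of all genes that split these libraries so was not counted. In TMM-scaled CPM, capsule library FFZRC_24 (11.1) and tea library JHHCGC_48 (7.77) lay above the lowest saline library, NCX_124 (6.89).

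The Rora fold for tea against saline in set X was -1.41 ± 0.38 (SE), with an unadjusted p of 0.0053 and an edgeR adjusted p of 0.125. It passed with DESeq2 (adjusted p = 0.0139), where 1678 genes did. It also passed without saline library NCX_124 (edgeR adjusted p = 0.0455), where 540 genes did. The edgeR adjusted p rose to as much as 0.375 on leaving out others. Without saline library NCX_147 the fold was -0.94. Capsule against saline in set X gave -1.07 ± 0.38, with an unadjusted p of 0.0211, a level under 0.05 reached by 9.64% of genes, and an edgeR adjusted p of 0.517. Without library NCX_147 that fold was -0.60. Tea against capsule gave -0.35 ± 0.38 in set X (edgeR adjusted p = 1). In set C the described Rora folds were -0.81 for tea against saline and -0.42 for tea against capsule, the latter at 0.12 without capsule library FFZRC_24. Capsule against saline in set C gave -0.39 ± 0.44 (edgeR adjusted p = 1). No receptor had an unadjusted p under 0.05 for capsule against saline in set C, where 5.75% of genes did.

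Rora varied with the make-up of the libraries. Smooth muscle markers summed to 8327 to 32495 CPM in saline of set X, 4561 to 11169 with capsule and 6595 to 14696 with tea. All 8 markers, which include Myh11 and Des, were lower with tea and all 8 lower with capsule than in saline, by medians of -0.97 and -1.24 in log2(CPM + 1), and none was at 0 in any library. In set C the same markers summed to 6130 to 8542 CPM in saline, 2995 to 10017 with capsule and 4509 to 11469 with tea. There 6 of 8 were higher with tea than in saline, by a median of 0.17, and all 8 were lower with capsule, by -0.63. All 13 mitochondrially encoded genes were lower with tea than in saline of set C (median -0.44), and 6 of 7 lymphocyte markers higher (median 0.38). With capsule, 6 of the 13 and all 7 of these were higher than in saline. The group mean of Rora was below saline with tea and with capsule. Over 18 libraries, Spearman's rho of Rora was 0.55 with the summed smooth muscle level, 0.71 with the mitochondrial share and -0.73 with lymphocyte markers. After subtraction of group means, Pearson's r was 0.87, 0.81 and -0.89. With the mitochondrial share as a covariate the Rora fold for tea against saline in set X was -1.003 (edgeR adjusted p = 0.176). The part of tissue make-up in the Rora values was not tested. Spearman's rho of Nr1d1 was 0.04 with smooth muscle, 0.06 with the mitochondrial share, -0.39 with the epithelial level and -0.33 with summed lung markers. After subtraction of group means, Pearson's r of Nr1d1 was 0.09, -0.09, 0.02 and -0.21 in the same order. The part of tissue make-up in the Nr1d1 values was not tested.

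**Figure D4:**
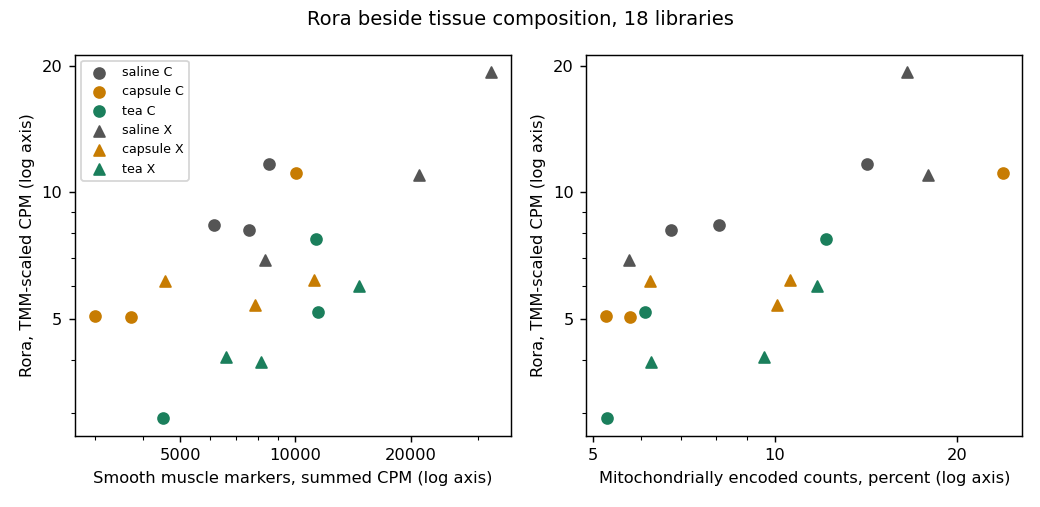
Rora in TMM-scaled CPM (vertical, log axis) against the summed CPM of 8 smooth muscle markers (left) and the percent of mitochondrially encoded counts (right), 18 libraries by group. The saline libraries NCX_134 and NCX_147 of set X, at 11.03 and 19.3 CPM of Rora, have the highest smooth muscle levels.

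Differences between the sets came from a fit of all 18 libraries, and those that contain tea of set C are given for the receptors with no SE and no test. The tea effect against saline in set X minus that in set C was 0.39 for Nr1d1, -0.39 for Nr1d2 and -0.58 for Rora. That contrast called 0% of genes in edgeR (1346 had an unadjusted edgeR p under 0.05, and DESeq2 called 108). The tea against capsule effect in set X minus that in set C was 1.36 for Nr1d1, 0.07 for Nr1d2 and 0.08 for Rora. In that contrast 4.24% of genes had an unadjusted p under 0.05 and 0.00447% passed after adjustment. The capsule effect against saline differed by -0.97 ± 0.52 for Nr1d1 (edgeR adjusted p = 0.8), -0.45 ± 0.46 for Nr1d2 and -0.66 ± 0.60 for Rora, with 0.0134% of genes called. That difference holds no tea library. Its capsule and saline libraries of set C were still part of the comparisons known when the receptors were chosen, so it is not independent of the choice. Between set X and set C as a whole, again with no test, Nr1d1 differed by 0.15, Nr1d2 by -0.30 and Rora by -0.01, and 0.0402% of genes were called.

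Around these receptors, 51 further genes of the pathway were listed: other RORs, clock activators and repressors, output factors, corepressors, coactivators, haem enzymes, ubiquitin ligases and targets. In tea against saline of set X, 49 passed the filter on low counts, 18 had a positive and 31 a negative fold, and the median was -0.11 against -0.06 over all genes. None passed an adjusted p of 0.05 in edgeR, and 9 of the 49 had an unadjusted p under 0.05, a level that 17.1% of all genes reached. Tea against capsule of set X split 18 to 31 with a median of -0.18 against -0.0045 over all genes, capsule against saline of set X 26 to 23 with a median of 0.02 against 0.01. In none of these did any gene of the list pass.

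The PAR-bZIP output factors Dbp, Tef and Hlf and Nfil3, a repressor that binds their sites, had 4 negative folds of 4 in tea against saline of set X, with a median of -0.91. Dbp was at 26.2, 17.3 and 46.9 CPM in saline libraries NCX_124, NCX_134 and NCX_147 and at 6.66, 19.7 and 13.1 CPM in tea libraries JHHCGX_129, JHHCGX_148 and JHHCGX_256, a fold of -1.20 ± 0.84 with overlapping groups (edgeR adjusted p = 0.505). Hlf gave -1.79 ± 0.83 (edgeR adjusted p = 0.317). The Period and Cryptochrome repressors had 4 negative folds of 5, with Per3 at -1.11 ± 0.52 and Per2 at -0.96 ± 0.46 (edgeR adjusted p of 0.317 and 0.325). Of the other repressors of E-box genes, Ciart gave -1.19 ± 0.81, Bhlhe41 -1.06 ± 0.54 and Bhlhe40 0.85 ± 0.30.

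The activators went both ways in tea against saline of set X. Clock gave -0.80 ± 0.20 (edgeR adjusted p = 0.112), while Npas2, its paralogue, gave 0.84 ± 0.27 (edgeR adjusted p = 0.166). Arntl was at 20.2, 39.4 and 49.8 CPM in saline and at 55.0, 41.1 and 62.5 CPM with tea, a fold of 0.53 ± 0.44 with overlapping groups. Among cofactors, Ppargc1b, a coactivator of nuclear receptors, had the smallest adjusted p of the list, 0.0664 by edgeR, at 1.23 ± 0.19. It was at 6.62, 5.69 and 6.64 CPM in saline libraries and at 13.8, 15.3 and 15.5 CPM in tea libraries, with no overlap. The capsule gave it 1.29 ± 0.19 against the same saline libraries (edgeR adjusted p = 0.496). The corepressor subunits had 3 positive and 3 negative folds, with Hdac3, the deacetylase that REV-ERBs recruit, at 0.42 ± 0.17 and Ncor1 at -0.40 ± 0.20. Alas1, the entry enzyme of haem synthesis and a REV-ERB target in liver, gave 0.76 ± 0.24 (edgeR adjusted p = 0.167). Cdkn1a, a cell cycle inhibitor, gave 0.79 ± 0.28.

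In tea against capsule of set X, Per3 gave -1.55 ± 0.52, Dbp -2.38 ± 0.87 and Ciart -2.25 ± 0.83 (edgeR adjusted p of 0.651, 0.703 and 0.713). The described folds of the same genes in tea against capsule of set C were -1.50, -3.16 and -2.52, with -1.54 for Tef. There, Dbp was at 70.5, 83.3 and 69.5 CPM with capsule and at 10.03, 7.94 and 7.04 CPM with tea. In that comparison 17 listed genes had a positive and 33 a negative fold, with Arntl at 0.65. Rorb gave -0.87 ± 1.91 in tea against saline of set X, at trace level.

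Across libraries, Nr1d2 ranked with the clock output genes. Over 18 libraries, which share treatment, depth and tissue make-up, Spearman's rho with Nr1d2 was 0.86 for Ciart and for Tef, 0.82 for Per3, 0.81 for Hlf and 0.76 for Dbp. After subtraction of group means, Pearson's r was 0.94 for Ciart, 0.90 for Tef, 0.81 for Per3 and 0.68 for Dbp. With Nr1d1 the rho was 0.65 for Dbp, 0.59 for Tef, 0.49 for Ciart and 0.45 for Nr1d2. Some genes of the opposite clock phase ran the other way: rho with Nr1d2 was -0.66 for Npas2, -0.56 for Nfil3 and -0.48 for Arntl. Between Nr1d1 and Arntl it was -0.39. Clock, listed as an activator with Arntl and Npas2, did not, with a rho of 0.34 with Nr1d2 and 0.27 with Nr1d1. Cry1, which also carries ROR elements, had a rho of 0.001 with Nr1d2 and -0.31 with Nr1d1. Rora followed Nr1d2 at 0.69 and Hlf at 0.86, but Arntl at only -0.05. Counted from the highest rho with Rora, Nr1d2 ranked 903 and Hlf 89 of 17083 genes. After subtraction of group means, Pearson's r of Rora was 0.51 with Nr1d2, 0.88 with Hlf and 0.49 with Arntl. These are descriptions, and no correlation was tested.

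Single libraries, chosen after their values were seen, lay far apart, and some did not follow this order. Library FFZRX_238 of the capsule group in set X had the lowest Nr1d1 of all, 69.6 CPM, with 44.1 CPM of Nr1d2, 7.91 CPM of Dbp and 57.8 CPM of Arntl. Its group mate FFZRX_268 had 211, 95.2, 138 and 22.1 CPM of the same genes. Likewise saline library NCC_2 of set C had 51.1 CPM of Nr1d2, 18.9 CPM of Dbp and 53.9 CPM of Arntl, where library NCC_8 had 106, 186 and 8.95 CPM. Within a single group, Dbp thus ran from 7.91 to 138 CPM, and in another from 18.9 to 186 CPM. In contrast, saline library NCX_134 of set X had 255.9 CPM of Nr1d1 and 81.0 CPM of Nr1d2 with only 17.3 CPM of Dbp and 39.4 CPM of Arntl. Tea library JHHCGX_148 had 257 CPM of Nr1d1 with 19.7 CPM of Dbp.

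**Figure D5:**
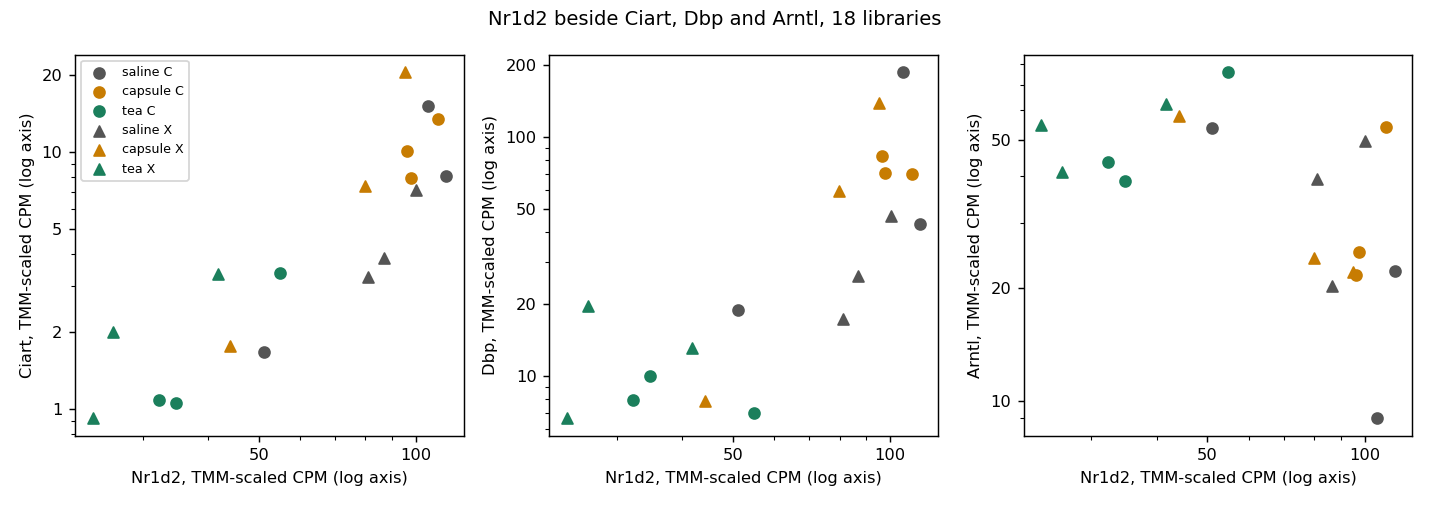
Nr1d2 (horizontal, log axis) against Ciart, Dbp and Arntl (vertical, log axes) in TMM-scaled CPM, 18 libraries by group. Libraries low in Nr1d2 tend to be low in Ciart and Dbp (rho 0.86 and 0.76), with exceptions such as NCX_134 for Dbp, and Arntl runs the other way (rho -0.48).

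Over 17083 named genes, those most like each receptor by Spearman's rho were ranked. For Nr1d2 they were Fbxo3, an F-box protein, at 0.88, Prkaa2, the alpha 2 subunit of AMP-activated kinase, at 0.87, and Tef, Ciart and the DNA repair gene Dclre1a at 0.86. The most opposite were Pym1 at -0.87, Tgm4 at -0.86 and Hnrnpl at -0.82. For Nr1d1 the values were lower, with Pros1 (protein S) and Rbsn at 0.79, Amd-ps4 and Calr3 at 0.73 and Get1 at 0.72, against Rnasek at -0.80, Tmprss3 at -0.79 and Rpl19-ps9 at -0.78. No clock gene was among the 5 nearest to Nr1d1. For Rora the values were the highest: Qk, Dmd (dystrophin), Adra1a (an adrenergic receptor) and Ccser2 at 0.94 and Hnmt at 0.93, against Cnp at -0.93, Ddx54 at -0.91 and Icosl at -0.89. Dmd and Adra1a are known from smooth muscle. Some genes of these lists were near the floor. Mean FPKM was 0.0206 for Tmprss3, 0.0491 for Adra1a, 0.218 for Tgm4, 0.246 for Rpl19-ps9 and 0.263 for Calr3.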

How the data were processed

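Colon RNA of 18 libraries was made with oligo(dT) beads, per the labels' protocols. The submitters' processing notes name cutadapt 1.9, HISAT2 2.0.4, StringTie 1.3.4d, edgeR and the human build hg38, in roles not stated. The identifiers are mouse, and 33866 of the 33977 were found in the GENCODE annotation of GRCm38 (29779 with the same start and end), whose positions are used. The authors deposited a whole-number read count and an FPKM value for each gene and library, per the file headers. No source used here says if counting was by strand or how near-identical copies were treated.

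The counts were used as deposited. Libraries were grouped by the treatment and the letter C or X in their titles. edgeR 4.0.16 (R 4.3.3) was run with TMM scaling, filterByExpr at a minimum count of 10, and its quasi-likelihood test, Benjamini-Hochberg adjusted over all genes with a threshold of 0.05, per set of 9 libraries and jointly for differences between sets. The SE is the absolute log2 fold over the square root of F. The scripts were tested on simulated data. Correlations used log2 CPM with a prior count of 2. Alternatives were DESeq2 1.42.0, limma 3.58.1 on log2 of the deposited FPKM + 0.1 or + 1, upper-quartile scaling, no filter, the mitochondrial share or the library kind as a term, the joint fit, and leaving out each library. Leaving out libraries at or above 11% mitochondrial counts, and the comparison of libraries with neither Col2a1 nor Sftpc, were added after seeing the data. The members and lists were chosen with earlier results of these data known. Named are the 3 receptors, the 2 genes of each list with the smallest p in tea against capsule of set C and tea against saline of set X, some fixed clock genes, and the genes nearest to each receptor by rank correlation. Some genes that this rule names are not reported here. Marker lists are given as summed CPM. Promoters came from RefSeq, where all 3 receptors matched.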

Additional observations from a re-analysis of the deposited data

How the results depend on the processing

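Counts of called genes depended on the tool. In the order tea against saline, capsule against saline and tea against capsule of set C, then of set X, edgeR called 0, 23, 3, 0, 0 and 0 genes, and DESeq2 called 167, 432, 172, 1678, 166 and 208. For the differences between sets of the tea effect, the tea against capsule effect and the capsule effect, and for the sets as a whole, edgeR called 0, 1, 3 and 9 and DESeq2 108, 101, 143 and 144. limma on log2(FPKM + 0.1) called 74, 178 and 6 in set C, 1 for tea and 2 for capsule against saline in set X, and 1 and 73 for the differences of the tea and capsule effects. With + 1 it called 111 and 191 for tea and capsule against saline in set C, 1 and 1 in set X, and 1 and 46 for those differences. The mitochondrial share as covariate gave 8, 163 and 35 in set C, 9 for the difference of the capsule effect and 14 between the sets as a whole. The joint fit gave 6 for capsule against saline and 0 for tea against capsule in set C, and 448 for tea against saline in set X. A term for library kind, estimated from set X libraries alone, gave 0 and 0 in those comparisons of set C, 381 for tea against saline in set X, and 0 and 0 for the differences of the tea against capsule and capsule effects. Without libraries at or above 11% mitochondrial counts, tea against capsule of set C gave 11. Leaving out each library gave 0 to 11, 2 to 240 and 1 to 9 in set C, 0 to 540 for tea against saline and 0 to 1 for tea against capsule in set X, and 0 to 1, 0 to 2 and 0 to 10 for the differences of the tea, tea against capsule and capsule effects. The 240 came without capsule library FFZRC_24 and the 540 without saline library NCX_124. The causes were not tested.

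Of the receptors' folds under other alternatives than leaving out libraries, 217 counted as the same, 13 reversed, 3 passed the threshold and 4 moved. Leaving out a library left 358 the same, reversed 19 and brought 1 past the threshold. In the described comparisons of set C, a fold counted as the same, whatever its sign, if its shift was under the mean within-group SD. A larger shift there counted as moved. Elsewhere the same means the same direction and side of the threshold. The folds that moved, in set C, became 0.09 for Nr1d1 and -0.30 for Rora in tea against saline (library kind term and limma at + 1). In tea against capsule they became -0.40 for Nr1d1 and -0.90 for Nr1d2 (library kind term). Rora turned there to 0.18, a change of sign that counted as the same. The library kind term gave 0.024 for Nr1d1 in capsule against saline and -0.12 in tea against capsule of set X, -0.19 for Nr1d1 in the difference of the tea effect, -0.55 for Nr1d2 and -0.998 for Rora in that of the tea against capsule effect, and 0.65 for Rora in that of the capsule effect. For the difference of the tea against capsule effect, limma at + 0.1 gave -0.031 for Nr1d2 and -0.094 for Rora, at + 1 -0.037 for Rora, and the mitochondrial covariate -0.017 for Nr1d2 and -0.29 for Rora. For Rora in set X against set C, limma gave 0.036 and 0.028. Leaving out each library, Rora ranged there from -0.17 to 0.14. It ranged from -0.42 to 0.42, and Nr1d2 from -0.21 to 0.31, in the difference of the tea against capsule effect. Nr1d1 in tea against capsule of set X ranged from -0.23 to 0.46 and Nr1d2 in capsule against saline of set C from -0.10 to 0.36. The Rora fold for tea against saline of set X, -1.41, became -0.50 with limma at + 1, a pseudocount above the gene's level.

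No paired analysis was possible because the groups share no replicate number. With 3 libraries a group, no outlier test was made. Rora rests on 203 to 1310 counts a library, and Nr1d1 and Nr1d2 on at least 1547, so the spread between libraries and not counting limits them.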
